A study of Mus musculus with 6 samples.

Results

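The cardiac sarcomere genes described here are *Myh6*, *Myh7*, *Myl4*, *Myl7*, *Tnnt2*, *Tnni3*, *Tnnc1*, *Mybpc3*, *Ttn* and *Ryr2*, 10 of the 18191 genes measured in the whole aorta of mice. They were chosen by name, as genes known for heart muscle, and all 10 were found by their NCBI gene identifiers. The data were 3 RNA-seq libraries of wild-type (WT) and 3 of *Npr1*+/- aortas, all from male mice, where *Npr1*+/- mice are heterozygous for a knockout made with CRISPR-Cas9 in *Npr1*, which encodes a receptor that binds natriuretic peptides of the heart. No other allele and no agent is named for either genotype, and the age of the mice is not given in the sources used here. Within a genotype the libraries carry the numbers 1 to 3, and no label says that they came from separate mice, so that p-values measure the spread between these samples, which may be technical. The estimated counts of a library summed to between 13510970 and 16664343, at which 3 counts, the lowest signal considered, equal 0.185 to 0.219 CPM (counts scaled by the total of the library and normalised between libraries by the TMM method, as all CPM values here).

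The sarcomere is the contractile unit of striated muscle, in which thick filaments of myosin pull on thin filaments of actin. Calcium released from the sarcoplasmic reticulum binds troponin on the thin filament and thereby allows the heart to contract, whereas smooth muscle, the main cell type of the aortic wall, holds no sarcomeres and is switched on mainly by phosphorylation of myosin. The aorta leaves the heart at its root, so that the genes of heart muscle are a natural check on what a dissected aorta contains. Genes that are all read from one tissue, present in varying amount, keep the ratios of their levels from library to library. The comparison therefore asked at what level the 10 genes stood, whether they rose and fell together, and whether they differed between genotypes.

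*Myh6* and *Myh7*, which encode the alpha and beta heavy chains of cardiac myosin, lie side by side on chromosome 14 and are alike over much of their length, which limits how their reads can be told apart. On GRCm38.p6, *Myh6* spans chr14:54941921-54968017 and *Myh7* chr14:54970684-54994626, both on the minus strand. The other members lie on chromosomes 1 (*Tnnt2*), 2 (*Mybpc3* and *Ttn*), 7 (*Tnni3*), 11 (*Myl4* and *Myl7*), 13 (*Ryr2*) and 14 (*Tnnc1*). The first 90 coding bases of *Myh6* and *Myh7*, from the GENCODE M21 transcripts on GRCm38, are shown with the bases that differ in capitals.

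Myh6: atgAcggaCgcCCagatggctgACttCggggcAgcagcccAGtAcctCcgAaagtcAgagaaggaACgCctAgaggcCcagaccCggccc
Myh7: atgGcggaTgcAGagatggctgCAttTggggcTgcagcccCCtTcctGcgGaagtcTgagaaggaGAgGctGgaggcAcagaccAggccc

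The pair differed at 20 of these 90 bases. Over the whole coding sequence, 92.1% of 5789 aligned bases were identical, the longest identical run was 245 bases, and 23.8% of the 50-base windows of *Myh6* were also found in *Myh7*. RSEM divides reads that fit both genes between them, and the split of low counts between *Myh6* and *Myh7* is uncertain. None of the 50-base windows of the other members that were compared with a related muscle gene was shared with it, as for *Tnnt2* with *Tnnt3*, *Tnni3* with *Tnni1* or *Ryr2* with *Ryr1*. The exons of *Myh7* also overlap *Mhrt* on the opposite strand, and those of *Tnni3* overlap *Dnaaf3* on its own strand. Whether strand was used in counting is not given in the sources used here, so that reads of *Myh7* and *Mhrt* cannot be told apart.

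Stretches before a RefSeq transcript start are shown for 4 members. They are *Myh6* and *Myl7*, which were both highest in *Npr1*+/- 1, and *Tnnt2* and *Ryr2*, which were both lowest there. They come from RefSeq on GRCm38.p6 and are printed 5′ to 3′ on the strand of the gene, with motifs that were searched in capitals.

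Myh6: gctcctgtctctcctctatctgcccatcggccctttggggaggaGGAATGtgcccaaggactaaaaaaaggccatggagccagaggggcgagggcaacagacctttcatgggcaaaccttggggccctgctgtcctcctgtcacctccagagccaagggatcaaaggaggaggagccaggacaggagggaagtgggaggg
Myl7: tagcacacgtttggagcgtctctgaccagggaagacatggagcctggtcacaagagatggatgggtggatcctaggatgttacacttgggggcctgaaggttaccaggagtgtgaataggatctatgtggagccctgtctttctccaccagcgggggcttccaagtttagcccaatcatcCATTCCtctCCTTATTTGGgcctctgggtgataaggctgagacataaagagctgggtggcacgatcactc
Tnnt2: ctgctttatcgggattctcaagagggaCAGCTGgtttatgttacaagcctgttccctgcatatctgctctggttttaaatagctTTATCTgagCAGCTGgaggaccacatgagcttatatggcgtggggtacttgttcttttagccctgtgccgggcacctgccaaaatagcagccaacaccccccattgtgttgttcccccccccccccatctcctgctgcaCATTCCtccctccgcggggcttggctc
Ryr2: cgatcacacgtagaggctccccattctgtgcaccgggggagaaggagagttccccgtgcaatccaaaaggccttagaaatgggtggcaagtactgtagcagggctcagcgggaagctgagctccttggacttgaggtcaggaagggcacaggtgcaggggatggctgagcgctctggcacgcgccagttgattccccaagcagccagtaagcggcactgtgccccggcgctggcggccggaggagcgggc

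The stretch of *Myh6* lies at chr14:54966658-54966857 on the minus strand, that of *Myl7* at chr11:5898783-5899032 on the minus strand, that of *Tnnt2* at chr1:135836084-135836333 on the plus strand and that of *Ryr2* at chr13:12106946-12107195 on the minus strand. For the 10 members, 12 windows of 250 bases, each before a RefSeq transcript start, were searched on both strands. The stretch of *Myh6* printed is the first 200 bases of its window. The only windows of *Myh6* and *Myl4* lie inside the gene spans, which reach to 54968017 and begin at 104546017. The bases before those outer ends were therefore not searched. The letters CATTCC, known as the MCAT element of muscle genes, were found in 5 of the 10 members (*Myh6*, *Myh7*, *Myl7*, *Tnnt2* and *Tnnc1*) and in 12.6% of all 32817 windows. The CArG box, the motif bound by serum response factor in muscle genes, was found in *Myl7* and in 1.47% of all windows, and was added to the search after values were seen. The GATA motif AGATAA was found in *Tnnt2* (9.99% of all windows), the E-box CAGCTG in *Tnnt2* and *Mybpc3* (13.0%) and TATAAA in 0 members (12.4%). None of these motifs was found in the window of *Ryr2*. A match describes letters in a window and does not show that a factor binds there.

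Per length of transcript, the cardiac sarcomere genes were low to moderate in the aorta, and they did not stand in equal amounts. In FPKM, the authors' unit per length and library size, the order in WT was *Tnnt2*, *Myl4*, *Ryr2*, *Tnni3*, *Myl7*, *Tnnc1*, *Myh6*, *Myh7*, *Mybpc3* and *Ttn*. *Tnnt2*, cardiac troponin T, which anchors troponin to tropomyosin, had 9.92 ± 4.34 FPKM in WT (SD, n = 3), with its mean over all 6 libraries at the percentile 62.0 of all genes. *Myl4*, the atrial essential light chain of myosin, followed at 6.34 ± 1.14 FPKM, and *Ryr2*, the calcium release channel of the sarcoplasmic reticulum, which is not itself a part of the sarcomere, at 3.30 ± 0.37 FPKM. *Tnni3*, cardiac troponin I, the inhibitory subunit, had 2.47 ± 0.62 FPKM.

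The second part of the order was lower. *Myl7*, the atrial regulatory light chain, had 0.750 ± 0.621 FPKM and *Tnnc1*, the troponin C that binds calcium in the heart, 0.710 ± 0.523 FPKM in WT. *Myh6*, the main myosin heavy chain of the adult mouse heart, had 0.243 ± 0.280 FPKM. *Myh7* and *Mybpc3*, cardiac myosin-binding protein C, were at 0.0333 and 0.0300 FPKM. *Ttn*, the giant protein that spans the sarcomere from the Z-disc to the M-line, had 0.010 FPKM in each WT library, where the file gives 2 decimals, and its mean over all libraries stood at the percentile 4.06. The ranges of neighbours in this order overlapped in WT except between *Myl4* and *Ryr2* and between *Tnni3* and *Myl7*.

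**Figure D1:**
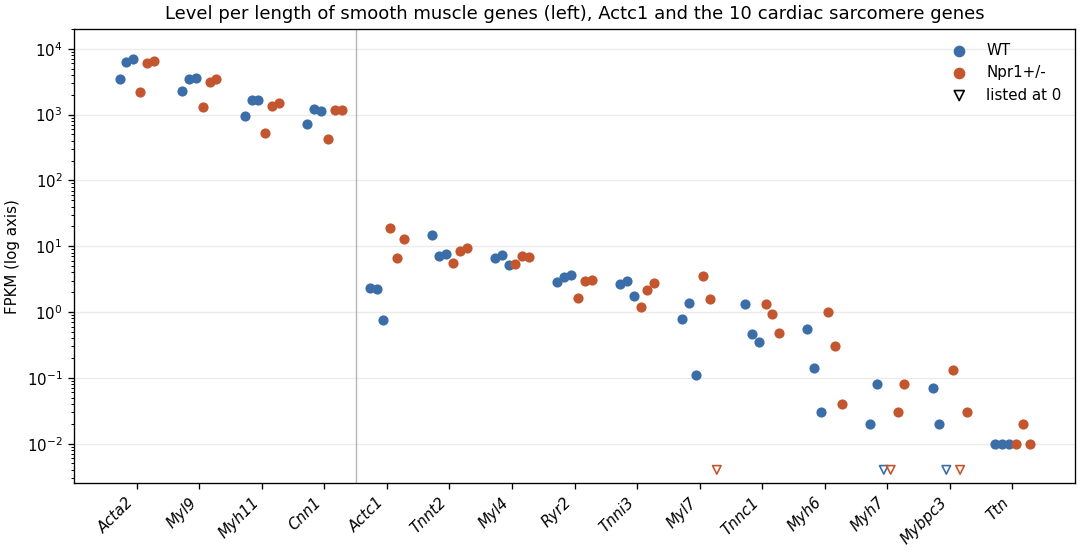
FPKM on a log axis in each of the 3 WT and 3 *Npr1*+/- libraries for 4 smooth muscle genes, *Actc1* and the 10 cardiac sarcomere genes, with open triangles at the foot for values listed at 0. *Acta2* averaged 5303 FPKM and *Tnnt2*, the highest of the 10 cardiac genes, 8.85 FPKM over the 6 libraries.

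Smooth muscle counterparts of *Myh6* and *Myl7* stood far above them. *Myh11*, the smooth muscle myosin heavy chain, averaged 1280 FPKM over the 6 libraries beside 0.345 FPKM for *Myh6*. *Myl9*, the smooth muscle regulatory light chain, averaged 2867 FPKM beside 1.23 FPKM for *Myl7*. The labelled tissue therefore showed its defining smooth muscle markers in every library, with *Acta2* between 2202 FPKM in *Npr1*+/- 1 and 7113 FPKM in WT 3.

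The 10 genes took between 0.005% and 0.00816% of the counts of a library, and *Ryr2* alone made up 55.1% to 78.4% of that share. In the order WT 1 to 3 and *Npr1*+/- 1 to 3, the share was 0.00816%, 0.00798%, 0.00783%, 0.005%, 0.00727% and 0.00749%. With *Ryr2* counted, it was highest in WT 1 and lowest in *Npr1*+/- 1. Leaving *Ryr2* out, a choice made after seeing the data, the lowest share was that of WT 3 (0.00169%). WT 1 stayed the highest (0.00323%). *Npr1*+/- 1 then stood at 0.00225%, above WT 2 (0.00218%) and below *Npr1*+/- 2 (0.00229%). The low share of *Npr1*+/- 1 was therefore seen only with *Ryr2* included. In bulk tissue, fewer cells of a type and less RNA per cell cannot be told apart.

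The 2 libraries numbered 1 stood apart from the other 4. The summed level of the 10 brown fat markers was 4000 CPM in WT 1 and 4033 CPM in *Npr1*+/- 1, against 606.5 to 1169 CPM in the other libraries, and that of the 6 erythroid markers was 7553 and 6286 CPM against 631.1 to 1313 CPM. The 12 smooth muscle markers summed to 25130 CPM in WT 1 and 15460 CPM in *Npr1*+/- 1, against 39430 to 45360 CPM elsewhere. *Npr1*+/- 1 also held 661.3 CPM of the 11 sympathetic neuron markers, against 78.11 to 98.28 CPM in the other 5 libraries. *Npr1* was 566 ± 98.3 CPM in WT and 425 ± 118 CPM in *Npr1*+/- (SD, n = 3), with overlapping groups. The genotypes as groups were therefore not separated by the targeted gene's own level. Within each number *Npr1* was lower in the *Npr1*+/- library, at 295.5 against 453.0, 452.1 against 611.5 and 526.8 against 633.2 CPM. That order held for 16.9% of all genes tested.

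The heavy chain *Myh6* varied the most of the members that can be compared. Its level was 3.355, 0.864 and 0.185 CPM in WT 1 to 3 and 6.27, 1.90 and 0.254 CPM in *Npr1*+/- 1 to 3, a 33.8-fold range between the highest and the lowest library. Both libraries numbered 1 were high, both numbered 3 were near the limit of 3 counts, and the genotypes overlapped. Within each number the *Npr1*+/- library was higher, at 1.87, 2.20 and 1.37 times the WT library, an order that 17.5% of the 13938 genes tested shared. The log2 fold change of *Npr1*+/- over WT was 0.95 (standard error 1.21, adjusted p = 0.999, edgeR's quasi-likelihood test).

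In the fit with a replicate block, which compares libraries of the same number, *Myh6* had a log2 fold change of 0.92 (unadjusted p = 0.0426, adjusted p = 0.379, edgeR), where 12.4% of all genes tested had an unadjusted p under 0.05. The brown fat, erythroid and smooth muscle levels above differ between the same libraries, and their part in the level of *Myh6* was not tested. Without *Npr1*+/- 1, the log2 fold change of *Myh6* was -0.44 (adjusted p = 0.999, edgeR). *Myh7* had 1.45, 7.61 and 0 estimated counts in the WT libraries and 0, 2.85 and 7.29 in *Npr1*+/- 1 to 3. It was at 0 in *Npr1*+/- 1, where *Myh6* was highest, and its total of 19.2 counts over the 6 libraries was too low to be tested.

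**Figure D2:**
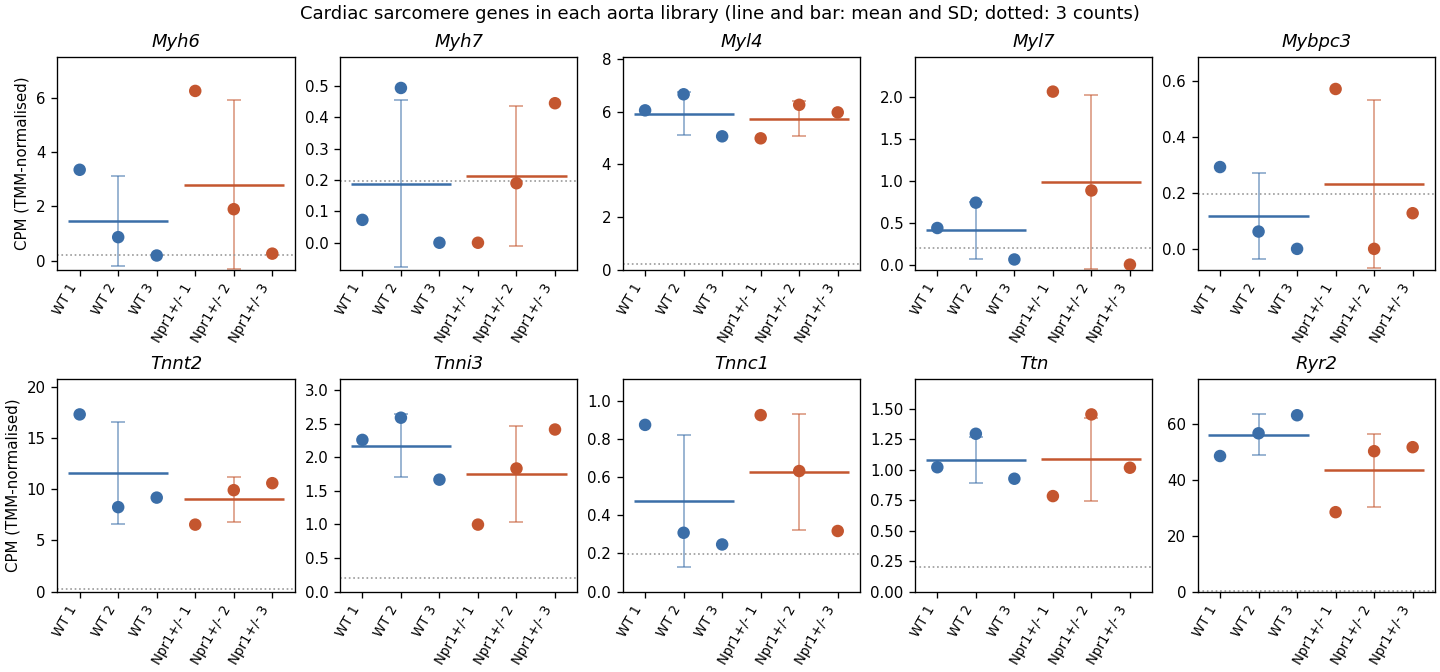
TMM-normalised CPM of each of the 10 cardiac sarcomere genes (vertical axis, own scale per panel) in the 3 WT (blue) and 3 *Npr1*+/- (red) libraries, with the mean and SD of each genotype and a dotted line at 3 counts. *Npr1*+/- 1 was the highest of the 6 libraries for *Myh6*, *Myl7*, *Tnnc1* and *Mybpc3* and the lowest for *Tnnt2*, *Tnni3*, *Ttn*, *Myl4* and *Ryr2*. For *Myh7* it tied with WT 3 as the lowest, at 0 counts.

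The 2 atrial light chains behaved differently from each other. *Myl4* was 6.05, 6.66 and 5.07 CPM in WT and 4.99, 6.26 and 5.98 CPM in *Npr1*+/- 1 to 3. It was the steadiest member, with a 1.34-fold range and an SD of its log2 level of 0.17, close to the 0.15 that counting error alone gives at its mean of 89.5 counts. *Myl7* had 6, 12 and 1 estimated counts in WT and 29, 14 and 0 in *Npr1*+/- 1 to 3, where 0 counts allow up to 0.191 CPM. Its highest library was *Npr1*+/- 1, as for *Myh6*, and both libraries numbered 3 held at most 1 count. The log2 fold change was -0.04 for *Myl4* (standard error 0.22, 95% interval -0.56 to 0.47) and 1.22 for *Myl7* (standard error 1.23, 95% interval -1.72 to 4.16), each with an adjusted p of 0.999 in edgeR.

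The troponin subunits *Tnnt2* and *Tnni3* did not follow the myosin heavy chain. *Tnnt2* was 17.4, 8.27 and 9.20 CPM in WT and 6.56, 9.93 and 10.6 CPM in *Npr1*+/- 1 to 3. It was highest in WT 1 and lowest in *Npr1*+/- 1, the 2 libraries in which *Myh6* was highest. *Tnni3* was 2.26, 2.59 and 1.67 CPM in WT and 0.998, 1.83 and 2.42 CPM in *Npr1*+/-. *Tnni3* was also lowest in *Npr1*+/- 1, and its genotypes overlapped, as did those of *Tnnt2*. The log2 fold change was -0.36 for *Tnnt2* (standard error 0.34) and -0.31 for *Tnni3* (standard error 0.40), with an adjusted p of 0.999 for both in edgeR.

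*Tnnc1*, which is also the troponin C of slow skeletal muscle, had 12, 5 and 4 estimated counts in WT and 13, 10 and 5 in *Npr1*+/- 1 to 3. Its highest libraries were *Npr1*+/- 1 and WT 1, as for *Myh6*, and the *Npr1*+/- library was higher in all 3 numbered pairs. It did not pass the filter for testing. *Mybpc3* had 4, 1 and 0 estimated counts in WT and 8, 0 and 2 in *Npr1*+/-, below 3 counts in 4 of the 6 libraries. *Ttn* had 14, 21 and 15 estimated counts in WT and 11, 23 and 16 in *Npr1*+/-, 100 counts in all. The SD of its log2 level, 0.29, was no larger than the 0.35 that counting error gives. Its log2 fold change was 0.01 (standard error 0.37, 95% interval -0.88 to 0.90, adjusted p = 1.0, edgeR).

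*Ryr2* was the member with the most counts and the least counting error. Its level was 48.6, 56.7 and 63.2 CPM in WT and 28.4, 50.3 and 51.7 CPM in *Npr1*+/- 1 to 3. *Npr1*+/- 1 was far below the others, and *Npr1*+/- 2 and 3 were above WT 1, so that the genotypes overlapped. The *Npr1*+/- library was lower in all 3 numbered pairs, at 0.585, 0.887 and 0.819 times WT, as for 16.9% of all genes tested. The log2 fold change was -0.37 (standard error 0.25, 95% interval -0.96 to 0.22, adjusted p = 0.999, edgeR), and -0.40 in the fit with the replicate block (unadjusted p = 0.0219, adjusted p = 0.31, edgeR). The smooth muscle markers were also lowest in *Npr1*+/- 1, and their part in the level of *Ryr2* was not tested.

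Across the genotypes, 7 of the 10 genes passed the filter on low counts and could be tested, all but *Myh7*, *Tnnc1* and *Mybpc3*. Calls required an adjusted p below 0.05 and a log2 fold change of 0.5 or more in size. Of the 7, edgeR called 0, beside 0.0% of all 13938 genes tested, and 0 of the 7 had an unadjusted p under 0.05, beside 2.96% of all genes. DESeq2 called 0 of the 10, beside 0.0942% of 16979 genes. The log2 fold change was above 0 for 3 and below 0 for 4 of the 7, with a median of -0.04, beside 51.6% above 0 and a median of 0.01 over all genes tested. The genotypes overlapped in CPM for all 10 members, and 7.48% of the genes tested had no overlap. These 7 passed a filter that the low members failed, and the intervals are wide: that of *Myh6* ran from -1.94 to 3.83, so that a difference of several fold in either direction was not detectable with 3 libraries a genotype. The SD of the log2 level of *Myh6* over libraries was 1.74, and counting error at its mean of 30.9 counts gives 0.26. That error is larger in libraries with fewer counts, which for *Myh6* fell to 3.0 in WT 3.

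**Figure D3:**
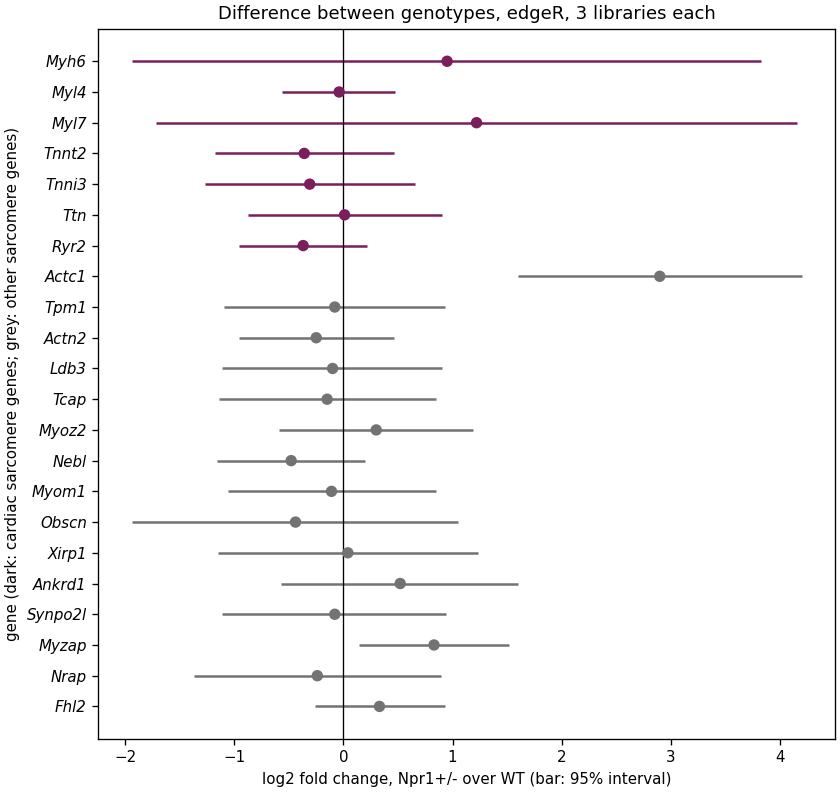
Log2 fold change of *Npr1*+/- over WT (horizontal axis) with its 95% interval from edgeR for the 7 cardiac sarcomere genes tested (dark) and 15 other genes of the cardiac sarcomere (grey). The intervals of the 7 span 0, from -0.56 to 0.47 for *Myl4* up to -1.72 to 4.16 for *Myl7*, and that of *Actc1* runs from 1.60 to 4.20.

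The members did not rise and fall together over the 6 libraries. *Npr1*+/- 1 was the highest library for 4 of the 10 and alone the lowest for 5. For *Myh7* it tied with WT 3 as the lowest, at 0 counts. Of the 7 tested it was the highest for 2 and the lowest for 5, beside 28.9% and 29.6% of all genes tested. For the 7 genes tested, the SD of the log2 level had a median of 0.46, and the SD of the log2 ratio of a gene to the mean of the other 6 had a median of 0.76. The ratio was steadier than the level for 2 of the 7, *Myh6* (1.63 against 1.74) and *Myl7* (1.42 against 1.54). These 2 varied the most and belong to the mean used for every other member, so that the other ratios include their variation. Without *Npr1*+/- 1, the medians of the level and of the ratio were 0.25 and 0.54. In 12 smooth muscle genes the same medians were 0.56 for the level and 0.10 for the ratio, and the ratio was the steadier for 12 of 12. The 5 erythroid genes tested gave 1.59 and 0.12, and 10 brown fat genes 1.19 and 0.28. The 15 other sarcomere genes gave 0.59 and 0.40, with the ratio the steadier for 12 of 15. The median was larger for the ratio than for the level, as in the 7 members, in 11 cardiac regulators (0.57 and 0.75) and 9 skeletal muscle genes (0.66 and 0.70). By gene, however, the ratio was the steadier for 6 of these 11 and 5 of these 9. These lists differ in the levels of their genes, and low genes carry more counting error. On the log2 scale and at the mean count of the gene, this error was 0.45 for *Myl7* and 0.05 for *Ryr2*. It is larger in the libraries with the fewest counts.

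**Figure D4:**
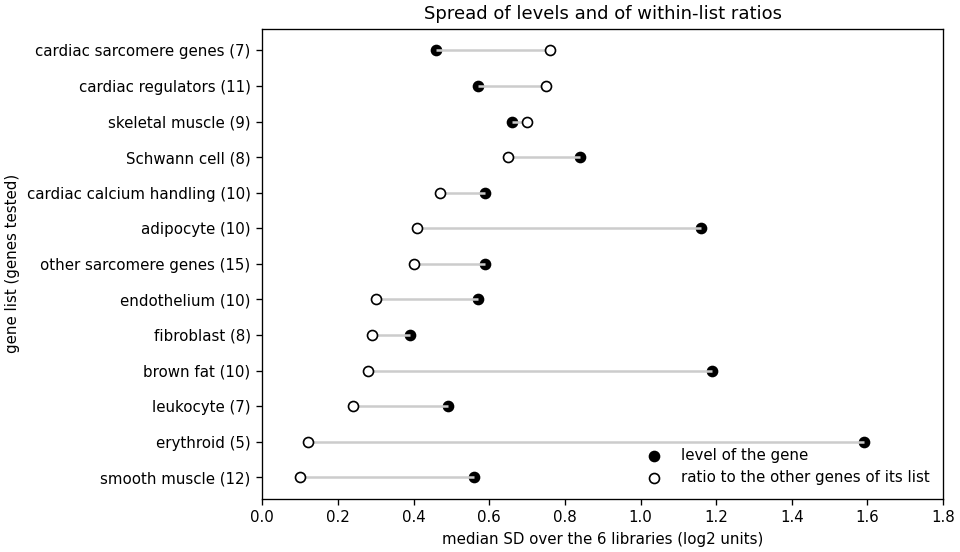
Median SD over the 6 libraries, in log2 units, of the level of each gene (filled) and of its ratio to the other genes of its list (open), by gene list with the number of genes tested. The cardiac sarcomere genes have an open point at 0.76, right of the filled point at 0.46, and smooth muscle has an open point at 0.10, left of the filled point at 0.56.

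By pairs, 21 ratios can be formed among the 7 genes. The SD of the log2 ratio had a median of 0.84 and ran from 0.17 for *Myl4* with *Ttn* to 2.07 for *Myh6* with *Ryr2*. The 66 pairs of smooth muscle genes had a median of 0.15. The ratio of *Myh6* to *Myl7* varied with an SD of 0.84, lower than that of either gene to the other 5 members, where it was at least 1.54. The 5 members *Myl4*, *Tnnt2*, *Tnni3*, *Ttn* and *Ryr2* had ratios to each other with an SD of at most 0.50. This split into 2 and 5 genes was seen in the values and describes these 6 libraries.

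The profile of each tested member, its log2 CPM minus its mean over the 6 libraries, was set beside the mean profiles of 9 marker lists and beside a flat line, a measure added after values were seen. *Ryr2* lay nearest to smooth muscle, at a root mean square distance of 0.21, against 0.36 from the flat line. *Tnnt2*, *Tnni3* and *Ttn* lay nearest to fibroblasts at 0.32, 0.24 and 0.25, though *Ttn* was 0.26 from the flat line, and *Myl4* was nearest to the flat line at 0.15. *Myh6* and *Myl7* lay nearest to the adipocyte list, but at 0.92 and 1.15, so that this list describes neither closely. These are likenesses over 6 points that share libraries, and do not say in which cells a gene is expressed.

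**Figure D5:**
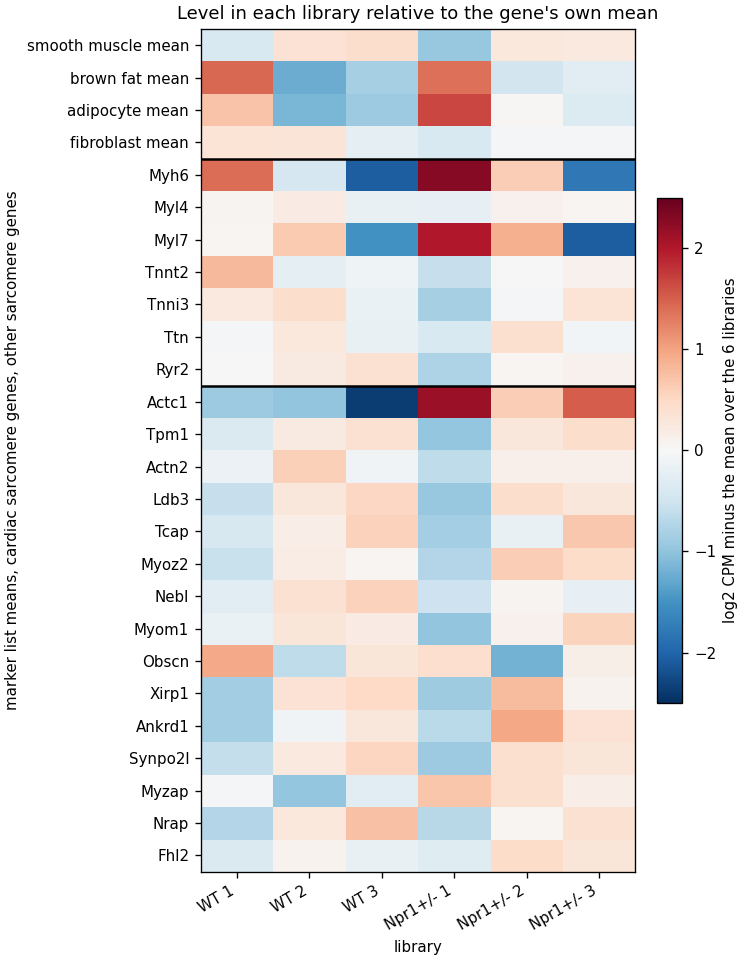
Log2 CPM of each gene minus its own mean over the 6 libraries (colour, red above and blue below) for 4 marker list means (top), the 7 cardiac sarcomere genes tested (middle) and 15 other sarcomere genes (bottom), with libraries on the horizontal axis. *Myh6* and *Myl7* are highest in *Npr1*+/- 1, at 2.27 and 2.0, where *Ryr2* is at -0.77 and the smooth muscle mean at -0.95.

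The 10 tested genes outside all lists whose profile lay closest to the mean profile of the 7 members were *Arhgap9*, *Lpar5*, *P2ry10b*, *Cntnap5c*, *Snrnp25*, *Cdc7*, *Ptpn6*, *Gm29733*, *Def6* and *Gm4767*, at distances of 0.116 to 0.166. The members themselves lay 0.34 to 1.28 from that mean, so that it describes none of them closely.

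Other genes of the cardiac sarcomere spanned a wide range of levels in the aorta. Of 26 listed, 25 were measured, 15 were tested and 8 stayed below 1 CPM in every library. *Tpm1*, the tropomyosin of striated and smooth muscle, averaged 927 FPKM, *Myom1*, the M-band protein myomesin, 144 FPKM and *Tcap*, the telethonin that caps titin, 74.3 FPKM. *Actn2*, the alpha-actinin of the Z-disc, at 6.81 FPKM, and *Nrap*, at 0.548 FPKM, lay between these and the lowest. The profile of 10 of the 15 tested lay nearest to smooth muscle. The 8 below 1 CPM were *Tnni1*, *Csrp3*, *Myom2*, *Lmod2*, *Xirp2*, *Smpx*, *Trim63* and *Mybphl*, where *Lmod2*, the leiomodin of heart and skeletal muscle, had at most 2 counts in a library. Of the 15, edgeR called 0, and 2 had an unadjusted p under 0.05, beside 2.96% of all genes tested. The median log2 fold change was -0.08, beside 0.01 over all genes tested.

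*Actc1*, cardiac alpha-actin, was the gene of this group that differed most between genotypes. It was 3.355, 3.15 and 1.11 CPM in WT and 28.6, 9.74 and 18.4 CPM in *Npr1*+/- 1 to 3, without overlap, as for 3.9% of all genes tested in that direction. The log2 fold change was 2.90 (standard error 0.54), with an adjusted p of 0.999 in edgeR and of 0.000559 in DESeq2, so that DESeq2 alone called it. None of the 10 members shared its order over the libraries, since their genotypes all overlapped. *Npr1*+/- 3, in which *Actc1* was 18.4 CPM, held 0 counts of *Myl7* and 3.95 of *Myh6*, but 167 of *Tnnt2*. The first 90 coding bases of *Actc1* and of *Acta2*, the abundant smooth muscle actin, are shown because reads of *Acta2* outnumber those of *Actc1*, with differing bases in capitals.

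Actc1: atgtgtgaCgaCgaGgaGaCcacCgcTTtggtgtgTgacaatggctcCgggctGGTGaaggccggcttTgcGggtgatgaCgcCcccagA
Acta2: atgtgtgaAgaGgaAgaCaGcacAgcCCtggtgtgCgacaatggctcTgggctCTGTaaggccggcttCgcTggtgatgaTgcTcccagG

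They differed at 19 of these 90 bases. Their coding sequences were identical at 82.5% of 1134 bases with a longest identical run of 23 bases, and 0% of the 50-base windows of *Actc1* were found in *Acta2*. *Acta2* was lowest in *Npr1*+/- 1, the library in which *Actc1* was highest.

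Genes of cardiac calcium handling included some at high levels in the aorta. All 14 listed were measured, 10 were tested, edgeR called 0, and 3 were above and 7 below 0 with a median log2 fold change of -0.28. Of the 10, 1 had an unadjusted p under 0.05 in edgeR, beside 2.96% of all genes tested. *Atp2a2*, the calcium pump SERCA2, averaged 154 FPKM and *Jph2*, which ties the sarcoplasmic reticulum to the cell membrane, 101 FPKM, and 6 of the 10 lay nearest to the smooth muscle profile. *Sln*, sarcolipin, a regulator of the calcium pump in the atrium, and *Trdn*, triadin, stayed below 1 CPM in every library.

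Regulators, hormones and enzymes of heart muscle also ranged widely. Of 19 listed, 17 were measured and 11 were tested, edgeR called 0, and 6 stayed below 1 CPM in every library. Of the 11, 2 had an unadjusted p under 0.05 in edgeR, beside 2.96% of all genes tested. *Myocd*, a coactivator of serum response factor in heart and smooth muscle, averaged 40.9 FPKM and the transcription factor *Mef2a* 34.1 FPKM. Those below 1 CPM included *Nppa*, *Nppb*, *Nkx2-5*, *Gata4* and *Ckmt2*. *Nppa*, the gene of atrial natriuretic peptide, had 2 to 4 counts in 5 libraries and 12 in *Npr1*+/- 2, at most 0.759 CPM. *Nkx2-5*, the transcription factor of the cardiac lineage, had at most 2 counts, *Nppb*, the gene of brain natriuretic peptide, at most 1 and *Ckmt2*, the mitochondrial creatine kinase of muscle, at most 4 counts in any library. *Nkx2-5* and *Nppb* held 0 counts in *Npr1*+/- 1 and in the WT libraries. *Myl2*, *Bmp10* and *Irx4* were listed too but were not found by symbol among the genes measured, so that their levels are unknown here.

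Skeletal muscle genes were mostly low. Of 24 listed, 22 were measured, 9 were tested and 12 stayed below 1 CPM in every library. The adult fast heavy chains *Myh1*, *Myh2* and *Myh4* reached at most 0.494 CPM. *Casq1*, the calsequestrin of fast skeletal muscle, was the highest at 24.8, 80.4 and 97.5 CPM in WT and 21.7, 67.1 and 79.3 CPM in *Npr1*+/- 1 to 3, and *Myl1*, a skeletal essential light chain, averaged 16.1 CPM. *Acta1*, skeletal alpha-actin, was 1.00 ± 0.288 CPM in WT and 3.58 ± 1.39 CPM in *Npr1*+/- (log2 fold change 1.83, standard error 0.43, unadjusted p = 0.00411, adjusted p = 0.999, edgeR). Of the 9 tested, edgeR called 0, and 2 had an unadjusted p under 0.05, beside 2.96% of all genes tested. The summed level of the 22 was 61.41 to 124.3 CPM in WT and 69.2 to 108.6 CPM in *Npr1*+/-.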

How the data were processed

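RNA-seq libraries were made from whole aorta of male mice, 3 labelled WT and 3 labelled *Npr1*+/-. The authors filtered reads with SOAPnuke, aligned them with Bowtie2 to a set of coding genes and estimated expression with RSEM. They deposited estimated counts, not normalized, and FPKM, scaled by transcript length and library size, for 18191 genes. The submitters' processing notes name mm10, and the release of the gene set is not given in the sources used here. Symbols came from RefSeq on GRCm38.p6 for 18070 genes. The authors' genotype means were not used, and some genes of the cardiac lists are not reported here.

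Estimated counts were rounded and tested with edgeR 4.0.16 in R 4.3.3 (TMM, minimum count 10, quasi-likelihood test, Benjamini-Hochberg over 13938 genes), after tests on simulated data. Log2 CPM used a prior count of 2, and intervals cover the spread between libraries. The named genes are the 10 members, *Npr1*, the genes closest to the members in profile and, from each list, the highest and the most changed. The members and lists were chosen with earlier results of these data known, and *Nppa*, *Nkx2-5*, *Lmod2* and other genes near 0 were picked with their values in view. Alternatives were DESeq2 1.42.0, its size factors, no filter, limma 3.58.1 on log2(FPKM + 0.1) and log2(FPKM + 1), a replicate block and leaving out each library.

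Deviations from the genotype means correlated at 0.64, 0.39 and 0.24 between libraries numbered 1, 2 and 3 and at -0.58 to 0.44 between other pairs. The numbers come from the labels.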

Additional observations from a re-analysis of the deposited data

How the results depend on the processing

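Under each alternative run, 0 of the cardiac sarcomere genes were called. DESeq2 called 16 genes in all and 1 gene of the other lists, where edgeR called 0. Of the 16, *Itgb4* lay at an adjusted p of 0.0499 in DESeq2, so that this count rests on a value at the threshold. Leaving out both libraries numbered 1, an alternative chosen after seeing the data, gave 1 called gene. The share of a library taken by the members, 0.00799% in WT and 0.00659% in *Npr1*+/- on average, was 0.00511% and 0.00464% in FPKM, and 0.00236% and 0.00224% without *Ryr2*, also added after seeing the data.

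*Myl4* turned to 0.025 with limma on log2(FPKM + 0.1), with and without the filter, to 0.021 with log2(FPKM + 1) and to 0.061 without both libraries numbered 1, where *Tnnt2* was 0.23. *Ttn* was -0.005 without the filter and -0.0082 with the replicate block. The block changed no call, and its median over the members was -0.04. Leaving out 1 library moved the log2 fold change between -0.44 and 2.39 for *Myh6*, -0.16 and 0.047 for *Myl4*, -0.55 and 0.048 for *Tnnt2*, -0.27 and 0.18 for *Ttn*, 0.089 and 1.97 for *Myl7*, -0.61 and -0.05 for *Tnni3* and -0.51 and -0.15 for *Ryr2*. Of these 6 fits, *Myh6* was negative only without *Npr1*+/- 1, and *Tnnt2* positive only without WT 1. The median SD of the members' log2 level was 0.25 to 0.52 when 1 library was left out, lowest without *Npr1*+/- 1. The cause was not tested. With 3 libraries per genotype, changes of *Myh6* and *Myl7* of several fold could not be detected.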

Other observations

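Some genes shared by heart, skeletal muscle and other tissues were high in the libraries numbered 1, and were picked with their values in view. *Fabp3*, a fatty acid-binding protein of heart and brown fat, was 153 CPM in WT 1 and 109 CPM in *Npr1*+/- 1, against 29.4 to 47.6 CPM in the other 4 libraries. *Casq2*, cardiac calsequestrin, was 2.92 and 4.35 CPM against 0.370 to 2.02 CPM, and *Hand2*, a transcription factor of heart and sympathetic neurons, was 12.03 and 21.8 CPM against 1.53 to 2.96 CPM. *Mb*, myoglobin, was 5.47 CPM in WT 1 and 1.92 CPM in *Npr1*+/- 1, against 0.318 to 0.926 CPM elsewhere. Other genes of the same lists went the other way. Of those tested, 6 of 10 calcium handling genes and 4 of 11 regulators lay nearest to the smooth muscle profile. That profile was at -0.38 in WT 1 and -0.95 in *Npr1*+/- 1. The part of the brown fat, erythroid and neuron levels of these 2 libraries in the values was not tested.

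Among the cardiac regulators, *Popdc2*, a membrane protein that binds cyclic AMP in striated muscle, was 17.3 ± 2.53 CPM in WT and 10.9 ± 0.622 CPM in *Npr1*+/- (SD, n = 3), and *Ckm*, muscle creatine kinase, was 3.94 ± 1.41 and 2.23 ± 0.303 CPM. Both were lower without overlap, as for 3.58% of all genes tested. Their log2 fold changes were -0.66 and -0.82, with an adjusted p of 0.999 for both in edgeR. *Myzap*, a protein of the intercalated disc, was 6.45 ± 2.02 CPM in WT and 11.5 ± 2.16 CPM in *Npr1*+/-, higher without overlap (log2 fold change 0.83, unadjusted p = 0.0252, adjusted p = 0.999, edgeR).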
